A study of Mus musculus with 6 samples.

Results

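The microRNAs described here are 6 that laboratories commonly use as references when they normalise miRNA measurements: mmu-miR-191-5p, mmu-miR-425-5p, mmu-miR-423-5p, mmu-miR-423-3p, mmu-miR-361-5p and mmu-miR-186-5p. They were chosen by name, and all 6 were among the 1247 mouse miRNAs on the array. The data come from mouse 3T3-L1 cells, an established embryonic fibroblast line that turns into fat cells in culture, taken on day 8 of differentiation. In the IL-6 group (2 samples), recombinant interleukin-6 was present at 1 ng/ml from the start of differentiation and was renewed with the medium every 24 h. In the control group (4 samples), no IL-6 was given. Both groups received the same differentiation agents (isobutyl-methylxanthine, dexamethasone, insulin and rosiglitazone), so every sample is a drug-induced adipocyte culture of 1 cell line. The labels do not say whether the samples of a group were separate cultures, so p-values rest on a spread between arrays that could be purely technical. Total RNA was labelled with 1 dye, Cy3, and each sample was hybridised to 1 Agilent miRNA array.

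A miRNA is cut from a hairpin precursor and loaded into an Argonaute protein, where its seed (bases 2 to 8 from the 5′ end) pairs with target mRNAs. Either arm of the hairpin can yield a mature miRNA, and the end of the name (5p or 3p) says which. A reference miRNA is used as the yardstick against which others are expressed, so it must be measurable in every sample, must vary little once the amount of RNA is accounted for, and must not respond to the treatment. In a total RNA sample, fewer cells of a type and less of the miRNA per cell cannot be told apart.

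The mature sequences are shown because the arrays read them through short complementary probes, and because they show that the 6 references are unrelated in their seeds. All 6 were found in RefSeq (mouse build GRCm38.p6), from which the sequences and positions are taken; capitals mark the seed.
mmu-miR-191-5p: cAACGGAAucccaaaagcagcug
mmu-miR-425-5p: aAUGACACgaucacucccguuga
mmu-miR-423-5p: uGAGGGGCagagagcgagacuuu
mmu-miR-423-3p: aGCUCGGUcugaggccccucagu
mmu-miR-361-5p: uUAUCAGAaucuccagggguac
mmu-miR-186-5p: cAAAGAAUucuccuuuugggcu
No 2 of them shared a seed. Of all other mature miRNAs in the table, mmu-miR-489-3p shared the seed of mmu-miR-425-5p and mmu-miR-6921-5p shared that of mmu-miR-423-5p, and the remaining 4 seeds had no other carrier.

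The 6 miRNAs come from 5 hairpins at 4 places in the genome. mmu-miR-191-5p (chr9:108568325-108568347, plus strand) and mmu-miR-425-5p (chr9:108568789-108568811, plus strand) lie next to each other within the bounds of Dalrd3, with 384 bases between their hairpins. mmu-miR-423-5p (chr11:77078122-77078144, minus strand) and mmu-miR-423-3p (chr11:77078086-77078108, minus strand) are the 2 arms of 1 hairpin within the bounds of Nsrp1. mmu-miR-361-5p (chrX:113074867-113074888, minus strand) lies within Chm, and mmu-miR-186-5p (chr3:157544285-157544306, plus strand) within Zranb2. The table used gives gene bounds and not whether these positions are exonic or intronic.

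Before the values, the arrays themselves are described. All 6 arrays lay on 1 slide and had 1 scan time; the IL-6 arrays took columns 3 and 4 of slide row 2 and the controls columns 1 to 4 of slide row 1, so slide row and group cannot be told apart. The brightness of the arrays differed. The 75th percentile of the 502 probes detected on all arrays was 440 and 369 intensity units on the IL-6 arrays, against 347, 396, 248 and 343 on the control arrays, with IL-6 array 1 the highest and control array 3 the lowest, 1.77-fold apart. Between 268 and 313 miRNAs were detected per array. The 3 miRNAs listed as adipocyte markers (mmu-miR-143-3p, mmu-miR-378a-3p and mmu-miR-103-3p) were all detected on all 6 arrays. Of these, mmu-miR-103-3p is also on the list of other proposed references below, so its detection does not by itself mark fat cells. Of 12 markers of other cells on the array, 0 were detected on any. No control spots and 0 saturated spots entered the values.

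Of the 6 references, 4 were measurable on these arrays and 2 were not. mmu-miR-425-5p, mmu-miR-423-5p, mmu-miR-361-5p and mmu-miR-186-5p were well above background on all 6 arrays and were among the 299 miRNAs tested. mmu-miR-191-5p was not well above background on any array, and mmu-miR-423-3p was on 1 of 6. The neighbours mmu-miR-191-5p and mmu-miR-425-5p, and the 2 arms mmu-miR-423-5p and mmu-miR-423-3p, thus differed in whether this array measured them.

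Without any scaling, the references followed the brightness of their array. mmu-miR-361-5p gave 138 and 120 intensity units on the IL-6 arrays, against 110, 124, 84.4 and 106 on the control arrays. mmu-miR-425-5p gave 68.0 and 54.3 with IL-6 and 53.4, 62.4, 38.4 and 47.1 in controls. IL-6 array 1 was the brightest and control array 3 the dimmest for both miRNAs. mmu-miR-423-5p gave 41.9 and 34.3 with IL-6 and 32.7, 34.9, 23.4 and 28.7 in controls, and mmu-miR-186-5p 29.5 and 24.5 with IL-6 and 24.3, 26.3, 19.3 and 23.6 in controls. IL-6 array 1 and control array 3 were the extremes for these miRNAs also, and the IL-6 and control values overlapped for each of the 4. The highest array exceeded the lowest 1.77-fold for mmu-miR-425-5p, 1.79-fold for mmu-miR-423-5p, 1.64-fold for mmu-miR-361-5p and 1.53-fold for mmu-miR-186-5p.

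Scaling each array by its 75th percentile brought the 4 references to within 1.17-fold over the 6 arrays. mmu-miR-361-5p then gave 112 and 116 scaled intensity units with IL-6, against 113, 112, 121 and 110 in controls, a 1.11-fold span. mmu-miR-425-5p gave 55.2 and 52.6 with IL-6, against 55.03, 56.34, 55.18 and 49.02 in controls, with control array 4 below the other 5. mmu-miR-423-5p gave 34.0 and 33.2 with IL-6 and 33.7, 31.5, 33.6 and 29.9 in controls, and here too control array 4 was the lowest. mmu-miR-186-5p gave 23.961 and 23.708 with IL-6 and 25.007, 23.717, 27.763 and 24.579 in controls, where control array 3 was the highest and the IL-6 arrays lay at the low end. After scaling, the IL-6 and control values still overlapped for each of the 4.

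**Figure D1:**
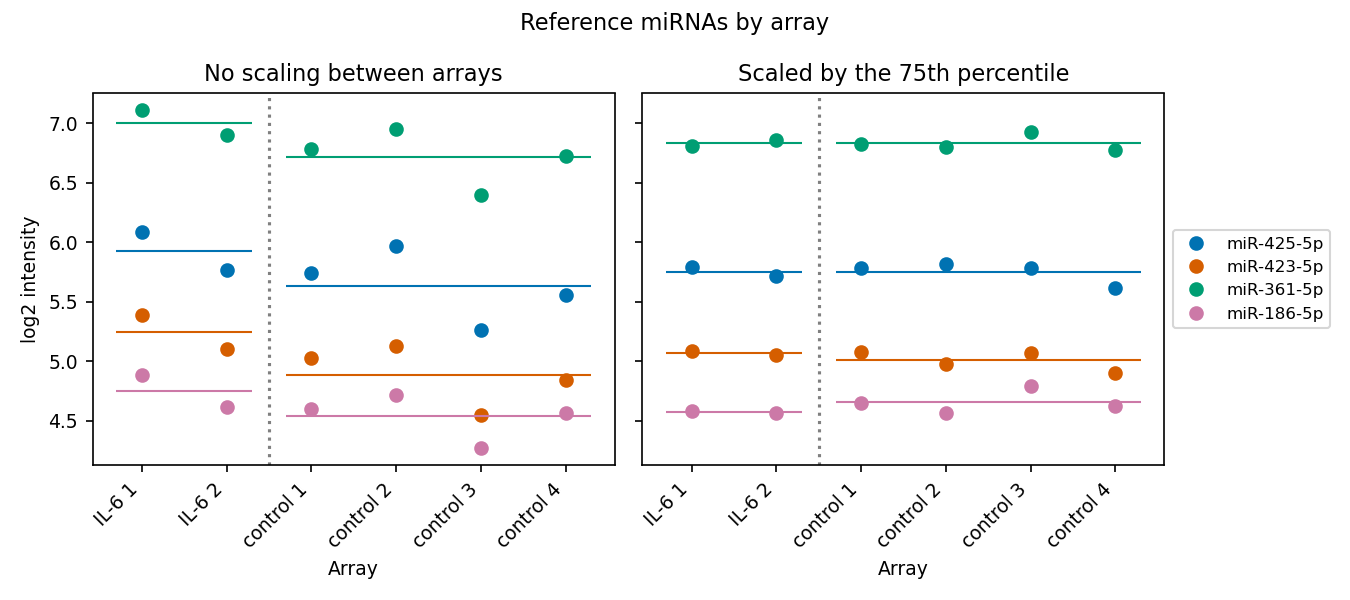
Intensity of the 4 measurable reference miRNAs on each of the 6 arrays, IL-6 arrays left of controls, before scaling (left) and after scaling by the 75th percentile (right); lines are group means. Before scaling all 4 are lowest on control array 3, and after scaling each stays within 1.17-fold.

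The standard deviation (SD) of the log2 intensity over the 6 arrays was used as the measure of stability. Scaled, it was 0.051 for mmu-miR-361-5p, 0.073 for mmu-miR-423-5p, 0.074 for mmu-miR-425-5p and 0.087 for mmu-miR-186-5p. Ranked from the smallest SD among the 299 tested miRNAs, these stood at places 12, 27, 32 and 51. The median SD was 0.073 over the 4 references and 0.14 over all tested miRNAs, whose quartiles were 0.11 and 0.20. Within the 4 control arrays alone, the medians were 0.087 for the references and 0.13 for all tested miRNAs. The first quartile of all tested miRNAs was 0.081 there, under the median of the references. Of the tested miRNAs, 15.7% had a smaller control SD than mmu-miR-361-5p. The share was 26.4% for mmu-miR-423-5p, 30.4% for mmu-miR-425-5p and 35.5% for mmu-miR-186-5p. Over the 6 arrays, the contrast between the medians changed with the setting. With the scanner software's total signal per miRNA, the medians were 0.090 over the references and 0.19 over all. With the series value table they were 0.072 and 0.14. The contrast was smaller with other settings. The medians were 0.13 over the references and 0.18 over all with the 75th percentile over all mouse probes, and 0.13 and 0.16 with quantile scaling. Normexp background correction was run with an offset of 50 intensity units added to each spot. With it the order turned, at 0.11 over the references and 0.105 over all.

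Single control arrays decided part of these SDs. Without control array 3, the SD was 0.034 for mmu-miR-186-5p and 0.028 for mmu-miR-361-5p. Without control array 4, it was 0.037 for mmu-miR-425-5p and 0.044 for mmu-miR-423-5p.

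Unscaled, the references were not set apart in the same way. Their SDs were 0.24 for mmu-miR-361-5p, 0.28 for mmu-miR-423-5p, 0.29 for mmu-miR-425-5p and 0.20 for mmu-miR-186-5p, at places 75, 131, 151 and 34 of 299. The median was 0.26 over the references and 0.29 over all tested miRNAs. mmu-miR-186-5p had the smallest SD of the 4 before scaling and the largest after it, but that place among the scaled values rested on control array 3, without which mmu-miR-425-5p (0.080) and mmu-miR-423-5p (0.078) exceeded it.

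**Figure D2:**
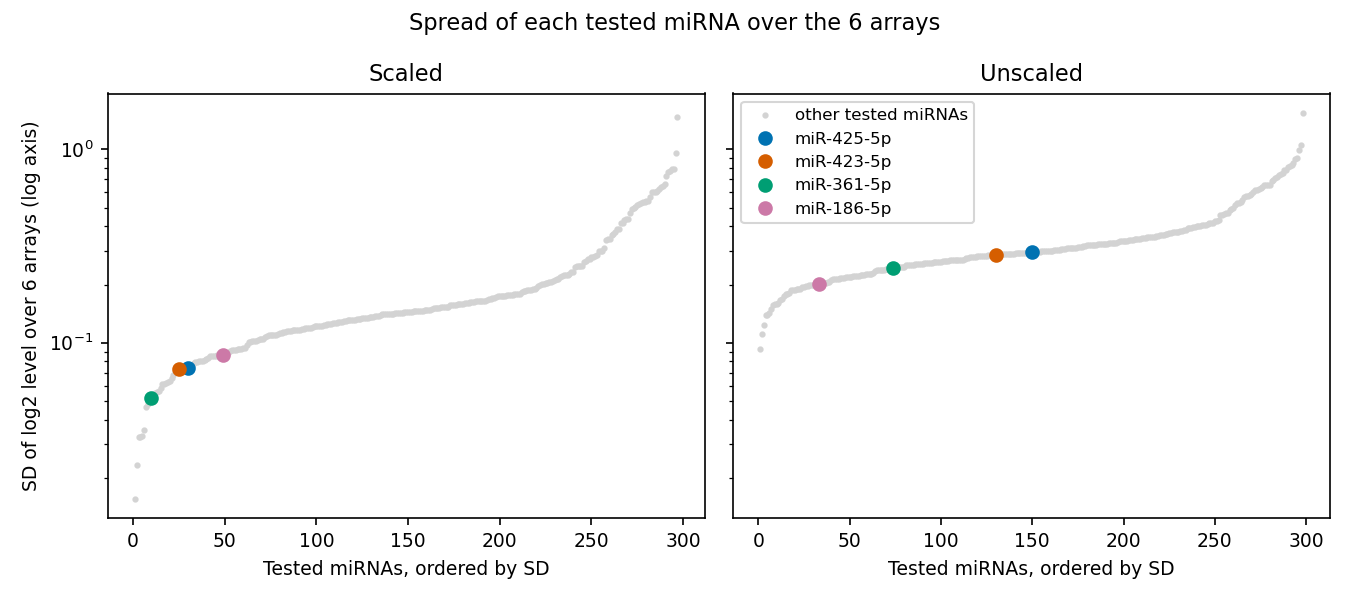
SD of log2 intensity over the 6 arrays (vertical, log scale) for the tested miRNAs with an SD above 0, ordered by SD (horizontal), after scaling (left) and before it (right), with the 4 measurable references marked. Ranked over all 299 tested miRNAs, with those of SD 0 that are not drawn included, the scaled references stand at places 12 to 51. The unscaled ones stand at places 34 to 151.

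The spread between arrays was larger than the error of the spots within an array. Each of these 4 miRNAs was read by 2 probes of 20 spots, of which 16 to 20 were used per array. The standard error from the spots (root mean square over the arrays, log2) was 0.022 for mmu-miR-425-5p, 0.028 for mmu-miR-423-5p, 0.015 for mmu-miR-361-5p and 0.032 for mmu-miR-186-5p. The SD between scaled arrays was 3.36, 2.56, 3.45 and 2.75 times as large for these miRNAs in that order. Spots of 1 array share its RNA and its scan and are not replicates of a condition.

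The references were also compared with each other, since the ratio of a pair on 1 array is the same whatever single factor the array is divided by. The SD of the log2 ratio was 0.058 for mmu-miR-361-5p to mmu-miR-186-5p, 0.060 for mmu-miR-425-5p to mmu-miR-423-5p, 0.060 for mmu-miR-423-5p to mmu-miR-361-5p and 0.074 for mmu-miR-425-5p to mmu-miR-361-5p. It was 0.098 for mmu-miR-423-5p to mmu-miR-186-5p and 0.11 for mmu-miR-425-5p to mmu-miR-186-5p. The median was 0.067 over these 6 pairs and 0.21 over the 44551 pairs of tested miRNAs. For the 6 pairs it was 0.11 with quantile scaling, which changes ratios within an array. It was 0.042 with normexp background correction, whose added offset of 50 also changes ratios and narrows them. Averaged over its 3 pairs, mmu-miR-361-5p had the smallest SD (0.064), followed by mmu-miR-423-5p (0.072), mmu-miR-425-5p (0.080) and mmu-miR-186-5p (0.087).

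In 2 of the 6 pairs the ratio on both IL-6 arrays was above, or on both below, that on all 4 controls. The log2 ratio of mmu-miR-423-5p to mmu-miR-186-5p, IL-6 minus control, was 0.14, and that of mmu-miR-425-5p to mmu-miR-423-5p was -0.061. Of all pairs of tested miRNAs, 34.5% had groups that did not overlap, a share close to that of the 6 pairs. No test was made of single ratios.

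**Figure D3:**
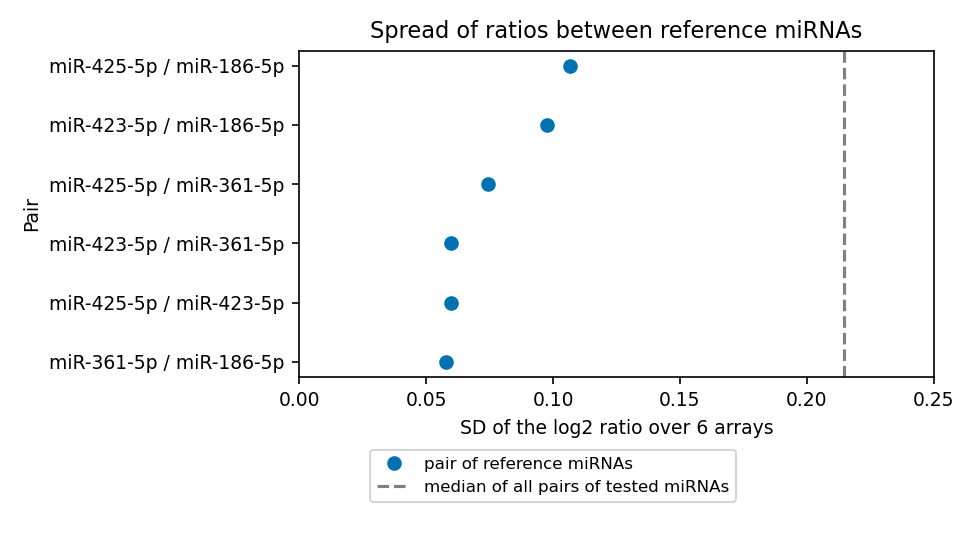
SD over the 6 arrays of the log2 ratio of each pair of measurable references, one dot per pair; the dashed line is the median over all 44551 pairs of tested miRNAs, 0.21. All 6 pairs lie left of that line, between 0.058 and 0.11.

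The question of the study was which miRNAs differ between IL-6 and control adipocytes, and for a reference the question is whether it was among them. None of the 4 measurable references passed the threshold (adjusted p under 0.05) in limma, fitted over all 299 tested miRNAs with Benjamini-Hochberg adjustment. mmu-miR-361-5p had a log2 intensity of 6.83 ± 0.034 with IL-6 (SD, n = 2) and 6.83 ± 0.063 in controls (SD, n = 4). The limma difference, IL-6 minus control, was -0.00081 ± 0.068 (SE; 95% interval -0.17 to 0.17; adjusted p = 1). mmu-miR-425-5p had 5.75 ± 0.051 with IL-6 and 5.75 ± 0.091 in controls, and its limma difference was 0.0018 ± 0.084 (95% interval -0.20 to 0.21; adjusted p = 1).

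mmu-miR-423-5p had a log2 intensity of 5.07 ± 0.025 with IL-6 and 5.01 ± 0.083 in controls. Its limma difference was 0.063 ± 0.079 (95% interval -0.13 to 0.26; adjusted p = 0.693). mmu-miR-186-5p had 4.57 ± 0.011 with IL-6 and 4.66 ± 0.098 in controls, and its limma difference was -0.082 ± 0.084 (95% interval -0.29 to 0.12; adjusted p = 0.620). These intervals bound the differences and do not show that they were 0. The interval that reaches furthest from 0, that of mmu-miR-186-5p, holds values down to -0.29 on the log2 scale. Taken singly, the probes of mmu-miR-423-5p had scaled log2 differences of 0.0057 and 0.10, and those of mmu-miR-361-5p -0.039 and 0.031. The probes of mmu-miR-425-5p had -0.011 and 0.0080, and those of mmu-miR-186-5p -0.12 and -0.064. Single probes were not tested.

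Over all tested miRNAs, 0.334% passed the threshold, which is 1 of 299, against 0 of 4 references. Unadjusted p-values from limma under 0.05 were found for 32 higher and 36 lower miRNAs of 299, and for 0 of the 4 references. The groups did not overlap, with both IL-6 arrays above or both below all controls, for 34.8% of tested miRNAs and for 0 of 4 references. The median difference was 0.00049 over the references and -0.016 over all tested miRNAs. The single miRNA past the threshold was mmu-miR-5117-5p, with a limma difference of 1.03 ± 0.086 (adjusted p = 0.00685); no control array detected it, so its fold is written as at least 2.04-fold, with each control at the higher of its own signal and the floor. That bound concerns the means and leaves out their error (95% interval of the log2 difference 0.82 to 1.24). With the slide column as a block this call was lost: limma called 0, with unadjusted p-values under 0.05 for 34 higher and 16 lower. That fit takes the difference from columns 3 and 4 alone, which held both groups, and leaves fewer degrees of freedom. Why the call was lost was not tested. Without control array 4, limma called 23 higher and 8 lower, without IL-6 array 1 it called 5 higher and without IL-6 array 2 it called 3 higher, none of them a reference.

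Without scaling, the same 4 references all had positive differences, as did the median miRNA. The unscaled limma difference was 0.30 for mmu-miR-425-5p (95% interval -0.32 to 0.91; adjusted p = 0.633) and 0.36 for mmu-miR-423-5p (-0.22 to 0.93; adjusted p = 0.592). It was 0.29 for mmu-miR-361-5p (-0.28 to 0.86; adjusted p = 0.602) and 0.21 for mmu-miR-186-5p (-0.32 to 0.74; adjusted p = 0.690). The median was 0.29 over the references and 0.27 over all tested miRNAs. Unscaled, 11.4% of tested miRNAs passed the threshold, 34 higher and 0 lower, and 25.8% had groups that did not overlap, against 0 of 4 references by either count. Across all settings tried, the sign of the difference turned at least once for each of the 4 references, and none passed the threshold under any (adjusted p between 0.114 and 1).

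**Figure D4:**
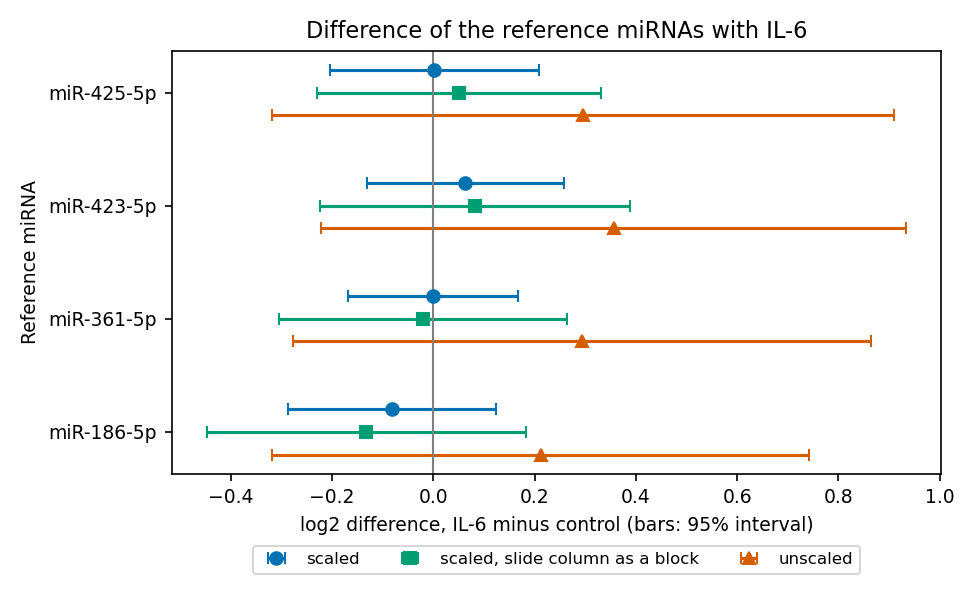
Log2 difference, IL-6 minus control, of the 4 measurable references with 95% intervals from limma, for scaled values, for scaled values with the slide column as a block, and for unscaled values. All intervals hold 0, and the unscaled differences lie between 0.21 and 0.36.

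Columns 3 and 4 of the slide each held 1 IL-6 array and 1 control array, which gives the differences within a column. In column 3 the scaled log2 difference was 0.0016 for mmu-miR-425-5p, 0.015 for mmu-miR-423-5p, -0.12 for mmu-miR-361-5p and -0.21 for mmu-miR-186-5p. In column 4 it was 0.10, 0.15, 0.076 and -0.052 in the same order of miRNAs. The sign of mmu-miR-361-5p thus differed between the columns, and mmu-miR-186-5p was lower with IL-6 in both. The median over the 4 references was -0.057 in column 3 and 0.088 in column 4, against -0.034 and -0.0054 over all tested miRNAs. With the column as a block, the limma differences were 0.051 for mmu-miR-425-5p, 0.082 for mmu-miR-423-5p, -0.020 for mmu-miR-361-5p and -0.13 for mmu-miR-186-5p (adjusted p between 0.470 and 0.920).

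Unscaled, the columns differed far more. In column 3, where the dimmest control array stood beside the brightest IL-6 array, the unscaled log2 differences were 0.83 for mmu-miR-425-5p, 0.84 for mmu-miR-423-5p, 0.71 for mmu-miR-361-5p and 0.61 for mmu-miR-186-5p. The median over all tested miRNAs there was 0.77. In column 4 they were 0.21, 0.25, 0.18 and 0.053 in the same order, and the median over all was 0.095.

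The 4 references together traced the brightness of the arrays. Their geometric mean, unscaled, was 58.4 and 48.3 intensity units on the IL-6 arrays, against 46.4, 51.6, 34.8 and 42.9 on the controls, a span of 1.68-fold. Its log2, centred, differed from that of the 75th percentile by 0.0097 and -0.0089 on the IL-6 arrays and by 0.025, -0.016, 0.088 and -0.077 on the controls (SD 0.054 over the 6 arrays). The largest gaps were on control arrays 3 and 4. The probes of these references are themselves among the 502 from which the percentile was taken.

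Used as the scale in place of the percentile, the 4 references left 0 miRNAs past limma's threshold, with unadjusted p-values under 0.05 for 29 higher and 44 lower miRNAs, and put the median of all tested miRNAs at -0.019. Scaling on 1 reference alone, tried after seeing the data, gave different counts for each. mmu-miR-425-5p alone left 0 called (29 higher and 32 lower unadjusted). mmu-miR-361-5p and mmu-miR-186-5p alone each called 2 higher, mmu-miR-5117-5p and mmu-miR-6354. mmu-miR-423-5p alone called 1 higher (mmu-miR-5117-5p) and 5 lower: mmu-miR-143-3p, mmu-miR-183-3p, mmu-miR-28a-5p, mmu-miR-31-3p and mmu-miR-31-5p.

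The split of the unadjusted counts also moved with the reference. With mmu-miR-423-5p as the scale it was 25 higher and 72 lower, and with mmu-miR-186-5p 41 higher and 9 lower. The median over all tested miRNAs was -0.079 on the scale of mmu-miR-423-5p and 0.058 on that of mmu-miR-186-5p. These were the 2 references with the largest positive and the largest negative scaled difference.

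The references that could not be measured are described by their probes. mmu-miR-191-5p was read by 4 probes of 12 to 15 bases, of 10 spots each, nested from the 3′ end of the miRNA. The longest, which pairs with bases 9 to 23, and the 14-base probe for mmu-miR-423-3p, which pairs with bases 10 to 23, are shown beside a probe of mmu-miR-361-5p, which pairs with bases 6 to 22, because they show which bases of each miRNA are read; they are DNA, written 5′ to 3′.
mmu-miR-191-5p probe: cagctgcttttggga
mmu-miR-423-3p probe: actgaggggcctca
mmu-miR-361-5p probe: gtacccctggagattct
None of the 4 probes of mmu-miR-191-5p had a spot well above background on any array. The mean scaled intensity of this miRNA was 0.898 and 1.31 with IL-6, against 1.85, 1.80, 0.822 and 1.00 in controls, all under the floor of 6.25, so these values have no order and no fold is given.

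mmu-miR-423-3p was read by 4 probes of 11 to 14 bases. Its scaled intensity was 6.24 and 2.92 with IL-6, against 3.80, 3.73, 3.69 and 3.36 in controls, and only IL-6 array 1 counted as detected. On that array the 13- and 14-base probes gave 12.6 and 12.7 scaled units, with 90.0% and 88.9% of their spots well above background. On IL-6 array 2 the same probes gave 5.23 and 5.77, and on the controls 5.62 to 8.40, with at most 10.0% of spots well above background. Apart from these 2 probes on IL-6 array 1, the values have no order, and no difference was tested. The sequences read by the 11- and 12-base probes also occur in mmu-miR-7224-5p, so those probes could not tell the 2 miRNAs apart; they showed no spot well above background.

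**Figure D5:**
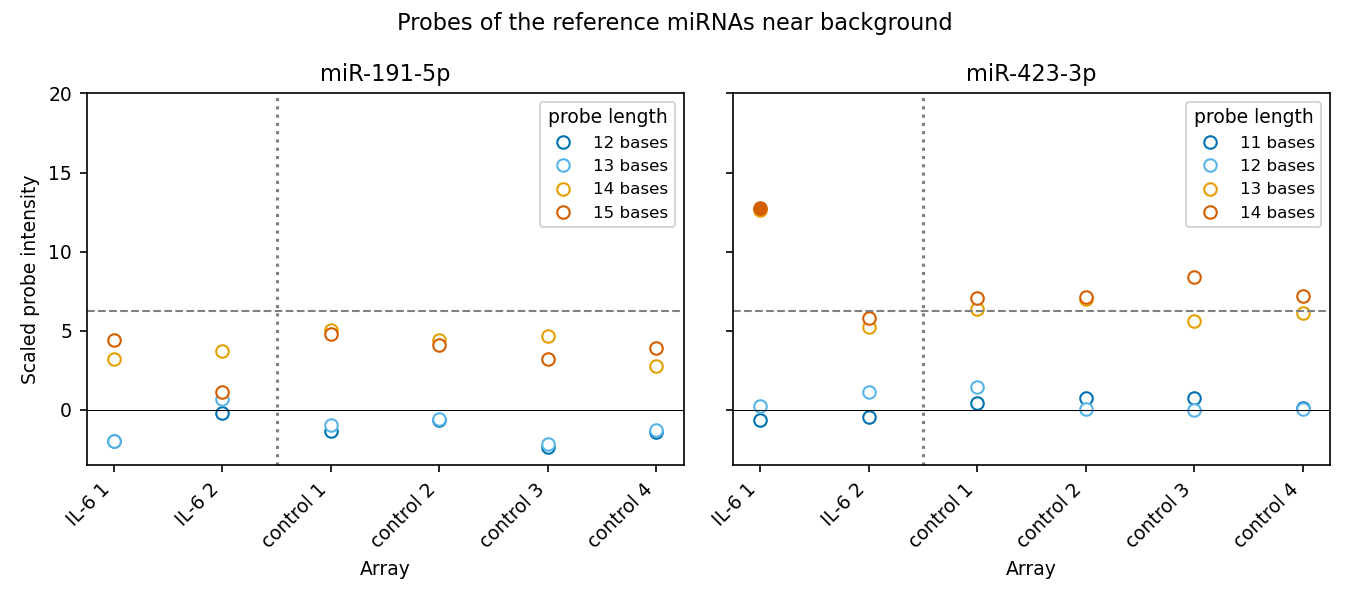
Scaled intensity of each probe of mmu-miR-191-5p (left) and mmu-miR-423-3p (right) on the 6 arrays, IL-6 arrays left of the dotted line; filled points had a share of at least 0.5 of their spots well above background and the dashed line is the floor of 6.25. Only the 13- and 14-base probes of mmu-miR-423-3p on IL-6 array 1 are filled.

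Among all mouse probes, 26.0% of the 262 with 9 to 12 bases were detected on all 6 arrays, against 14.3% of the 1049 with 13 to 15 bases and 14.5% of the 1134 with 16 to 18 bases. Of the 273 miRNAs read by 4 probes, as these were, 12.1% were detected on all arrays, against 24.97% of the 901 miRNAs read by 2 probes. The opposite arms mmu-miR-191-3p, mmu-miR-425-3p, mmu-miR-361-3p and mmu-miR-186-3p were detected on 0 of 6 arrays.

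Other miRNAs that have been proposed as references give a standard of comparison. All 16 of a list of these were tested. Their scaled SDs had a median of 0.12, against 0.073 over the 4 references and 0.14 over all tested miRNAs. Of the 16, 4 lay under 0.087, the largest SD of the 4 references, against 50 of all 299 tested miRNAs (16.7%). The 4 of the list were mmu-miR-26a-5p (0.035), mmu-miR-93-5p (0.058), mmu-miR-25-3p (0.061) and mmu-miR-152-3p (0.081). mmu-miR-103-3p (0.093), mmu-miR-92a-3p (0.10) and mmu-miR-24-3p (0.10) followed. mmu-miR-345-5p, mmu-miR-484, mmu-miR-1839-5p, let-7a (mmu-let-7a-5p), mmu-miR-320-3p and mmu-miR-23a-3p lay between 0.12 and 0.13, and mmu-miR-30b-5p at 0.14. mmu-miR-16-5p (0.15) and mmu-miR-26b-5p (0.17) were the most variable of the list.

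The scaled difference was below 0 for 12 of these 16 and above 0 for 4, with a median of -0.098, against 163 below 0 and 136 above 0 of all 299, and none passed limma's threshold (adjusted p between 0.169 and 1). For 3 of the 16, both IL-6 arrays lay under all controls, as they did for 21.7% of all tested miRNAs, a share close to that of the list. The limma difference was -0.15 for mmu-miR-24-3p (adjusted p = 0.267), -0.20 for mmu-miR-320-3p (adjusted p = 0.247) and -0.20 for mmu-miR-345-5p (adjusted p = 0.169). The 95% interval of mmu-miR-345-5p, which is not adjusted for the number of miRNAs, was -0.37 to -0.037. No other interval of the list left out 0. mmu-miR-16-5p, a frequent choice in serum studies, had -0.13, and mmu-miR-103-3p, which is itself abundant in fat cells, -0.11. The 4 references had scaled differences between -0.082 and 0.063.

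By the SD of their log2 ratio to the mean of the 4 references, the 5 other miRNAs that followed the references most closely over the 6 arrays were mmu-miR-199a-5p (0.033), mmu-miR-676-3p (0.038), mmu-miR-19a-3p (0.040), mmu-miR-106b-5p (0.044) and mmu-miR-185-5p (0.045). The references themselves, each of which is part of that mean, had SDs of 0.028 to 0.061, and the median over the other tested miRNAs was 0.15. The scaled differences of these 5 lay between -0.023 and 0.050. The 5 were picked over all 6 arrays, IL-6 arrays included, so differences close to those of the references follow from the choice.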

How the data were processed

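The scanner software was Agilent Feature Extraction 10.10.1.1, per the submitters' processing notes. The deposited values are intensity values from which, per the file headers, a fitted background was subtracted, so they can be negative. Deposited spot flags mark uneven, outlying and well-above-background spots.

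Each array held 49880 spots for 1247 miRNAs (3105 probes) and 2164 control spots. Control, uneven and outlying spots were dropped and the others averaged per probe; detection of a probe required 0.5 or more of the spots to be marked well above background. Arrays were scaled by the 75th percentile of the 502 probes detected on all, then multiplied by the mean percentile. Probes of a miRNA were averaged linearly, values under 6.25 (the highest of the arrays' lowest detected signals) set to it, and log2 taken. Of the 299 tested miRNAs, detected on all controls or both IL-6 arrays, 16 lay on the floor on some array. limma 3.58.1 in R 4.3.3 (lmFit, eBayes with trend; two-sided, Benjamini-Hochberg, threshold 0.05) was fitted over all 6 arrays and tested on simulated data. Groups and replicate numbers came from the titles. The number of arrays limits the precision.

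Deviations from the group means correlated 0.058 and -0.34 between same-numbered arrays, and 0.41 and 0.51 between arrays of the same slide column. With 2 IL-6 arrays, the deviations of IL-6 array 2 are those of IL-6 array 1 with the sign turned. These correlations therefore cannot decide whether samples pair. The labels state no pairing by number, so none was used in the main fit. The slide column was fitted as a block as an alternative. Named are the 6 references, the opposite arms, a list of 16 proposed references, the 5 non-members that followed the references most closely, and all miRNAs past the threshold where fewer than 6 were. The members and lists were chosen with earlier results of these data known. Alternatives covered scaling, background, floor, filter, probe summary, blocks and left-out arrays; for scaling on the references, the 4 detected on all arrays were used.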

Additional observations from a re-analysis of the deposited data

Results flagged for a closer look

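Among the controls, the scaled log2 intensity of mmu-miR-425-5p on control array 4 was 5.62, apart from the other 3: the gap to the nearest was 0.831 of the whole range, just above Dixon's 95% critical value for 4 values. It was 1 of 9 sets of control values examined in this way, and chance marks about 1 in 20. The 18-base probe of mmu-miR-425-5p gave 66.1 scaled units on control array 4, against 76.7, 78.0 and 77.4 on the other controls. The 17-base probe gave 31.9, against 33.3, 34.7 and 33.0.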

How the results depend on the processing

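No measurable reference passed limma's threshold under any alternative, but its small difference changed sign under some; the causes were not tested. The count of miRNAs called higher, 1 as reported, was 2 with the 75th percentile over all probes, with the brightest probe, without the detection filter (miRNAs on the floor on every array left out) and with the series value table. It was 7 without the floor, 34 without scaling, 31 with hybridisation and 19 with labelling spike-in scaling, and 12 (26 lower) with the total signal per miRNA. It was 0 with normexp background, quantile scaling, the slide column block and scaling on the 4 references. Scaling on 1 reference, added after seeing the data, gave 0 for mmu-miR-425-5p, 2 for mmu-miR-361-5p and for mmu-miR-186-5p, and 5 lower for mmu-miR-423-5p. The median difference of the references, 0.00049 as reported, was -0.11 with all probes and with total signal, -0.092 with normexp and -0.094 with quantile scaling. It was 0.29 without scaling, 0.097 with the value table, 0.31 with hybridisation and 0.21 with labelling spike-ins, 0.082 scaled on mmu-miR-186-5p and 0.088 within slide column 4. Their median SD, 0.073 as reported against 0.14 over all tested miRNAs, was 0.26 without scaling (all 0.29), and 0.28 and 0.36 with hybridisation and labelling spike-ins (all 0.31 and 0.35). It was 0.13 with the percentile over all probes (all 0.18), 0.13 with quantile scaling (all 0.16) and 0.11 with normexp (all 0.105). The SD of mmu-miR-186-5p was the smallest of the 4 with the value table (0.041), without scaling (0.20) and with hybridisation (0.22) and labelling (0.32) spike-ins. That of mmu-miR-425-5p was the largest with all probes (0.16), uneven and outlying spots kept (0.12) and total signal (0.107). It was also the largest without scaling (0.29) and with hybridisation (0.295) and labelling (0.395) spike-ins. With normexp (0.135) and the value table (0.088), that of mmu-miR-423-5p was the largest.

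The sign turned for mmu-miR-425-5p with all probes (-0.11), normexp (-0.11), quantile scaling (-0.086) and total signal (-0.11), and for mmu-miR-423-5p with all probes (-0.048), normexp (-0.11), quantile scaling (-0.10) and total signal (-0.044). For mmu-miR-361-5p it turned with the brightest probe (0.031), uneven and outlying spots kept (0.029), no scaling (0.29), quantile scaling (0.0051), scaling on the references (0.0036), the value table (0.095), hybridisation (0.31) and labelling (0.21) spike-ins and within column 4 (0.076). For mmu-miR-186-5p it turned without scaling (0.21), with the value table (0.014) and with hybridisation (0.23) and labelling (0.13) spike-ins.

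The fit with replicate number as a block called 0 higher and gave -0.047 for mmu-miR-425-5p and 0.018 for mmu-miR-361-5p. The labels do not state that these numbers pair the samples.

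Leaving out 1 array at a time gave 1 to 23 called higher and 0 to 8 lower, the highest of both without control array 4; differences of -0.043 to 0.038 for mmu-miR-425-5p, 0.028 to 0.085 for mmu-miR-423-5p, -0.025 to 0.030 for mmu-miR-361-5p and -0.11 to -0.036 for mmu-miR-186-5p; a median difference of -0.031 to 0.022, a median SD of 0.047 to 0.080 and a median pair SD of 0.065 to 0.073. With 1 IL-6 array left, it is assumed to vary like the controls. Signal over background limits mmu-miR-191-5p and mmu-miR-423-3p, which have no fold here.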

Other observations

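The deposited positions of the probes were set beside the RefSeq mature positions, with a tolerance of 3 bases. For plus-strand miRNAs, 1408 of 1408 probes lay inside the mature miRNA. For minus-strand miRNAs, 2 of 1035 did (0.193%), and the positions of the reference miRNAs are therefore given from RefSeq.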
